A study of Mus musculus with 10 samples.

Results

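The genes described here are 35 genes that keep reactive oxygen species and thiols in balance. They comprise the superoxide dismutases, catalase and glutathione peroxidases, peroxiredoxins, the thioredoxin system, enzymes of glutathione synthesis and reduction, the transcription factor NRF2 (gene Nfe2l2) with its sensor KEAP1 and 2 classic targets, and the NADPH-producing pentose phosphate pathway. They were taken by name from a list, and each of the 35 symbols matched 1 of the 56748 gene identifiers in the tables. The RNA came from beta cells, the insulin-producing cells of the pancreas, sorted by flow cytometry (FACS). Their islets were taken from NOD mice, a strain prone to spontaneous autoimmune diabetes, which were male and 6 to 8 weeks old. In the LPS group, islets spent 48 hours in culture with lipopolysaccharide at 50 ng/ml (5 libraries, numbered 6 to 10 in their titles). Lipopolysaccharide (LPS) comes from the outer wall of bacteria and is recognised by Toll-like receptor 4. The untreated group had no addition (5 libraries, numbered 1 to 5), and for it the labels state no time in culture. A difference in time in culture, if there was any, cannot be told apart from LPS. Below, rose and fell mean higher and lower in LPS than in untreated libraries. Whole islets, with all their cell types, were exposed, and cells were sorted after the exposure. The labels speak of independent samples without naming the animals, so p-values measure the spread between these samples only.

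Superoxide formed in mitochondria and cytosol is converted to hydrogen peroxide by superoxide dismutases, and peroxide is then removed by catalase, glutathione peroxidases and peroxiredoxins. The peroxidases draw electrons from glutathione and thioredoxin, which are reduced again at the expense of NADPH. NRF2 is held in check by KEAP1 and, when released, binds antioxidant response elements of many of these genes. Rodent beta cells are known for low catalase and glutathione peroxidase activity compared with liver.

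Total counts assigned to genes ran from 18465188 to 27379892 per library. The 10 beta cell markers, among them Ins1, Ins2 and Iapp, summed to 101964 to 134049 CPM (a gene's counts relative to its normalised library total) in LPS and 118261 to 137066 CPM in untreated libraries, and all 10 were detected in every library. Of the 10, 3 were called lower in LPS (edgeR adjusted p at most 0.00143): the glucose transporter gene Slc2a2 averaged 205 ± 10.2 CPM in LPS and 372 ± 45.7 CPM in untreated cells, the zinc transporter gene Slc30a8 347 ± 17.9 CPM in LPS and 523 ± 24.6 CPM in untreated cells, and Ucn3, a maturity marker, 277 ± 34.0 CPM in LPS and 431 ± 43.6 CPM in untreated cells. Whether this bears on the genes described here was not tested. Alpha cell markers, led by Gcg and Ttr, summed to 4138 to 8931 CPM in LPS and 4984 to 14271 CPM in untreated libraries. Delta and pancreatic polypeptide cell markers, led by Sst and Ppy, summed to 5434 to 10288 CPM in LPS and 6913 to 10122 CPM in untreated libraries. Of these, only Ppy was called, and it was lower in LPS (log2 fold change -0.99, edgeR adjusted p = 0.0473). It averaged 783 ± 285 CPM in LPS and 1558 ± 465 CPM in untreated cells, and its bearing on the genes described here was not tested. Acinar markers, led by Ctrb1 and Prss2, summed to 116 to 574 CPM in LPS and 197 to 423 CPM in untreated libraries, and mesenchymal markers, led by Col1a1 and Col3a1, to 3.47 to 25.9 CPM in LPS and 4.76 to 91.7 CPM in untreated libraries. Macrophage markers summed to 36.4 to 47.0 CPM in LPS and 29.2 to 42.1 CPM in untreated libraries, of which Cd68 and C1qa gave nearly all, while Ptprc was at 0 in all libraries and Adgre1 at 0 in all LPS libraries. Lymphocyte markers summed to 1.33 to 2.82 CPM in LPS and 2.53 to 3.85 CPM in untreated libraries, with Cd3e, Cd3d, Cd3g, Ms4a1 and Nkg7 at 0 throughout. In these bulk samples, fewer cells of a type and less RNA per cell cannot be told apart.

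Per length, the most abundant of the 35 genes in these sorted samples was Gpx3, which encodes a secreted glutathione peroxidase. The samples also held RNA of other islet cells, whose part in its level was not tested. Its level was 248 ± 52.9 CPM per kilobase of exon in LPS and 271 ± 43.4 in untreated cells (SD, n = 5 each). Next came Txnip, which encodes an inhibitor of thioredoxin known in islets as a glucose-induced gene, at 145 ± 9.14 CPM per kilobase in LPS and 168 ± 12.6 in untreated cells. Gpx4, the peroxidase that reduces lipid peroxides in membranes, and Gpx1, the main cytosolic glutathione peroxidase, followed. Gpx4 was at 72.4 ± 9.52 CPM per kilobase in LPS and 67.6 ± 8.32 in untreated cells, and Gpx1 at 73.4 ± 13.3 in LPS and 58.9 ± 9.25 in untreated cells. Catalase RNA stood far lower, 28th of the 35 genes, at 6.26 ± 0.446 CPM per kilobase in LPS and 5.04 ± 0.295 in untreated cells. Sod3, the extracellular superoxide dismutase, and Gpx8, a peroxidase of the endoplasmic reticulum, were close to the detection limit. Sod3 had 19 counts summed over the LPS libraries and 3 over the untreated ones, and Gpx8 had 12 over the LPS and 20 over the untreated libraries. Neither passed the filter on low counts. Exon lengths were merged over all annotated transcripts and include rarely used ends, so the order of neighbouring genes is approximate.

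**Figure D1:**
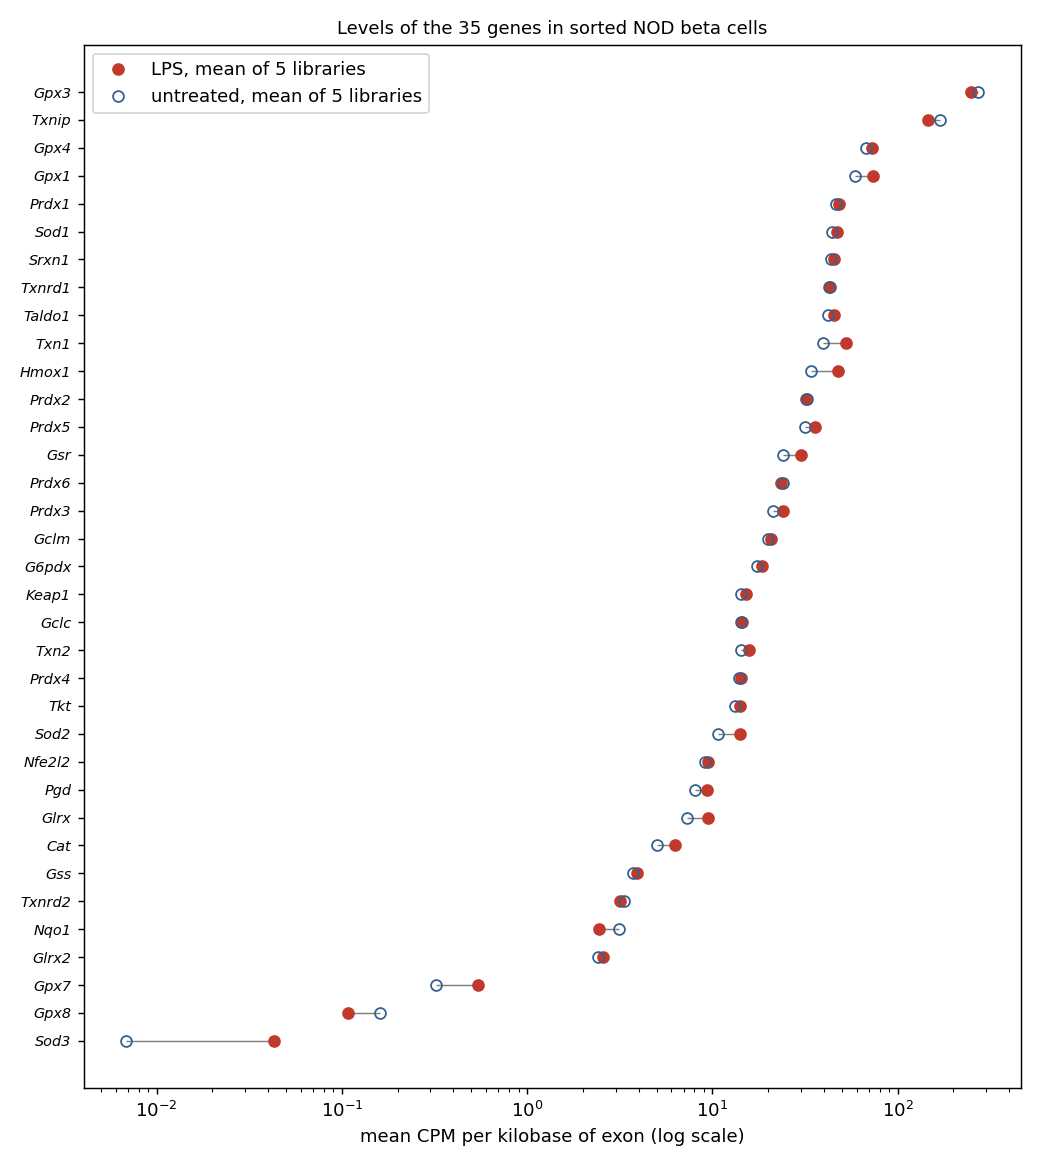
Mean CPM per kilobase of merged exon of the 35 genes on a log axis, with filled points for the 5 LPS libraries and open points for the 5 untreated libraries, ordered by the untreated mean. Gpx3 and Txnip lie at the top, Sod3 and Gpx8 at the bottom, and for most genes the points of both groups lie close together.

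Of the 35 genes, 33 had enough counts to be tested. Of these, 4 were higher in LPS and 0 lower (edgeR quasi-likelihood test, adjusted p under 0.05 over all 15942 genes tested). The 4 were Sod2, Txn1, Glrx and Gsr, with LPS levels 1.25 to 1.32 times the untreated ones. By other tools, limma-voom called 4 higher and 0 lower, and DESeq2 called 6 higher, adding Cat and Pgd, and 1 lower, Txnip. Over all genes tested, 2.84% were called higher and 0.928% lower. The members are mostly abundant genes: 29 of the 33 had a mean of at least 20 CPM, and among all genes at that level 257 of 7589 (3.39%) were called higher. At an unadjusted p under 0.05, 11 of the 33 were higher and 2 lower, where 8.32% of all genes tested were higher and 6.98% lower. In 6 of the 33 every LPS library lay above every untreated library, and in 1 every LPS library lay below. Of all genes tested, 3.84% were separated upward and 1.87% downward in this way. The median log2 fold change of the 33 genes was 0.08, beside -0.01 for all genes tested, with 26 values above 0 and 7 below.

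**Figure D2:**
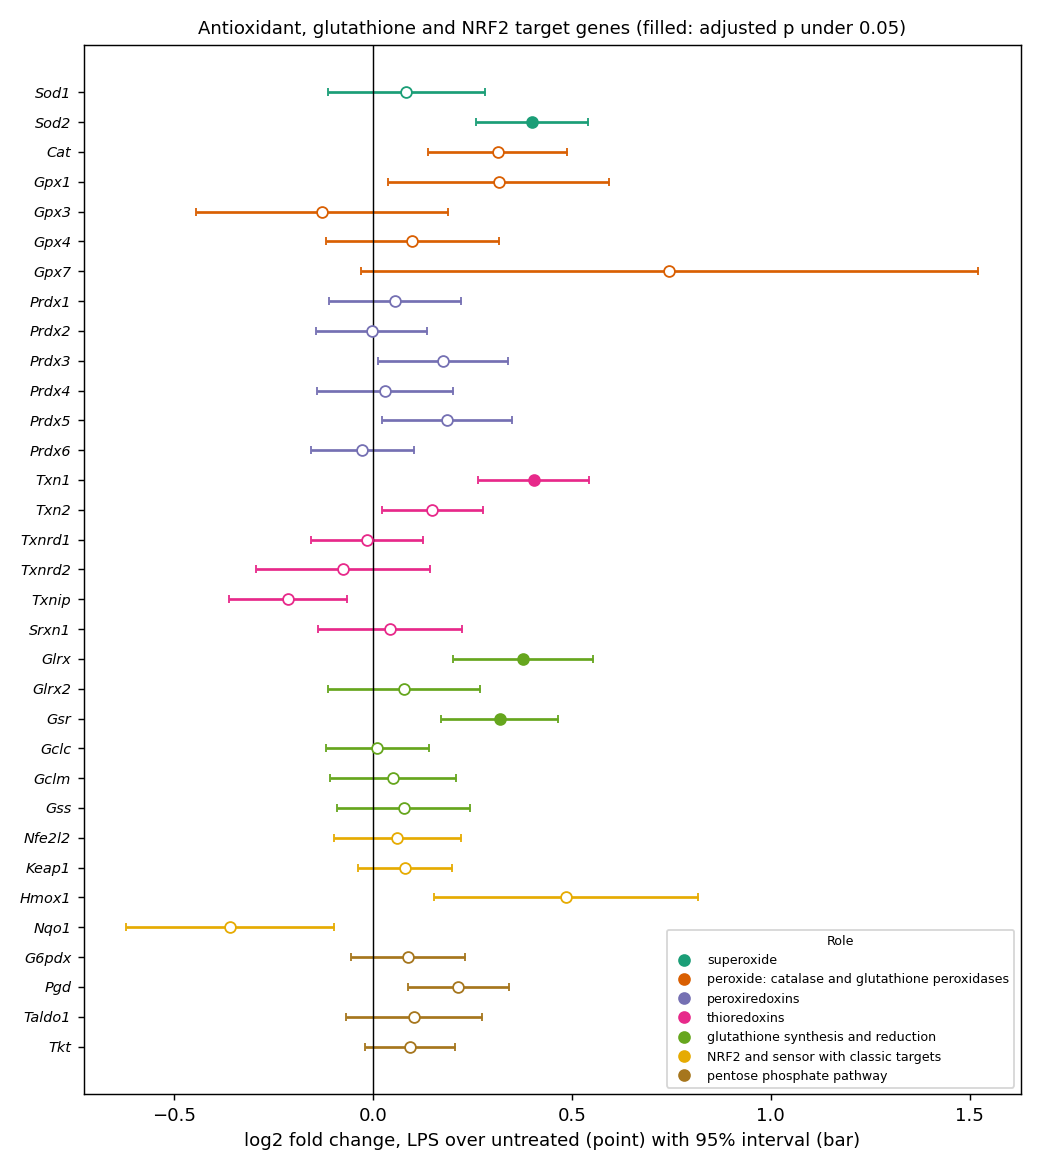
Log2 fold change of LPS over untreated for the 33 tested genes, coloured by role, with bars for the 95% interval and filled points for genes with an adjusted p under 0.05. Sod2, Txn1, Glrx and Gsr are filled and lie right of 0, and most other intervals include 0.

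The changes were small, and so were the intervals. Of the 29 tested genes that were not called, 25 had a 95% interval that stayed within 1.5 times in either direction, and 19 stayed within 1.25 times. The exceptions at 1.5 times were Gpx1, Gpx7, Hmox1 and Nqo1. Replicates varied little within a group, with a median coefficient of variation over the tested members of 7.52% in LPS and 7.43% in untreated libraries.

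Among the superoxide dismutases, the mitochondrial enzyme rose and the cytosolic one did not pass the test. Sod2 (ENSMUSG00000006818), which encodes the manganese enzyme of mitochondria, had 159, 143, 131, 135 and 141 normalised CPM in LPS libraries 6 to 10, against 115, 112, 102, 106 and 102 in untreated libraries 1 to 5. Every LPS library lay above every untreated library. The means were 142 ± 10.7 CPM in LPS and 107 ± 5.85 CPM in untreated cells (SD, n = 5 each). LPS cells thus had 1.32 times the untreated level (95% interval 1.20 to 1.46; log2 fold change 0.40 ± 0.07 SE, edgeR adjusted p = 0.00291). Sod1, the copper and zinc enzyme of the cytosol, had 184, 172, 173, 183 and 221 CPM in LPS libraries, against 173, 156, 161, 183 and 208 CPM in untreated libraries. The groups overlapped, and LPS 10 was the highest library. Its log2 fold change was 0.08 ± 0.09 SE (edgeR adjusted p = 0.749), with an interval of 0.924 to 1.22 times.

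None of the 5 tested genes among catalase and the glutathione peroxidases was called by edgeR, and 2 of them, Cat and Gpx1, were higher at an unadjusted p under 0.05. Cat, the gene of catalase, which splits hydrogen peroxide in peroxisomes, had 17.6, 17.04, 14.7, 15.6 and 16.9 CPM in LPS libraries, against 13.8, 11.96, 13.3, 13.8 and 12.98 in untreated libraries. The groups did not overlap, but the adjusted p was 0.0517 (edgeR; log2 fold change 0.31 ± 0.08 SE), just past the threshold, and it was 0.0469 without LPS 8. Gpx3 had 414, 537, 549.7, 429 and 318 CPM in LPS libraries, against 579.6, 508, 522, 480.5 and 366 in untreated libraries. These values spread widely within both groups, and the fold change of 0.915 had an interval of 0.734 to 1.14 (edgeR adjusted p = 0.761). Gpx3 was highest in LPS 8 and untreated 1 and lowest in LPS 10 and untreated 5. The same held for Gcg and Sst, markers of alpha and delta cells, which were looked at after the values were seen. The part of these cells in the Gpx3 level was not tested. Gpx4 had 119.8, 111, 110.2, 133 and 149 CPM in LPS libraries, against 122, 104, 103, 116 and 138 CPM in untreated libraries, with overlapping groups (log2 fold change 0.10, edgeR adjusted p = 0.722). Gpx1 had 129, 83.01, 89.01, 113 and 115 CPM in LPS libraries, against 107, 73.5, 80.4, 75.8 and 88.1 in untreated libraries. It was highest in LPS 6 within its group and in untreated 1 within its own, and the groups overlapped (log2 fold change 0.32 ± 0.13 SE, edgeR adjusted p = 0.249). Gpx7, a peroxidase of the endoplasmic reticulum, was scarce, at 0.439 to 1.07 CPM in LPS and 0.246 to 0.527 CPM in untreated libraries (edgeR adjusted p = 0.353, log2 fold change 0.74 ± 0.36 SE).

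The 6 peroxiredoxins, which reduce peroxide with electrons mostly from thioredoxin, held no gene called by edgeR, DESeq2 or limma-voom, and 2 of them, Prdx3 and Prdx5, were higher at an unadjusted p under 0.05. Prdx1, a cytosolic peroxiredoxin, had 150.1, 139, 132, 146 and 164 CPM in LPS libraries, against 144, 145, 126, 158 and 129.8 in untreated libraries. Prdx6, a peroxiredoxin with a single catalytic cysteine, had 113, 111, 107, 115 and 118 CPM in LPS libraries, against 103, 123, 113, 117 and 119 in untreated libraries. For both genes the groups overlapped across most of their range, with log2 fold changes of 0.06 (interval 0.927 to 1.17 times) and -0.03 (interval 0.897 to 1.07 times). The mitochondrial Prdx3 ran from 32.2 to 38.6 CPM in LPS and 29.5 to 34.2 CPM in untreated libraries (log2 fold change 0.18, edgeR adjusted p = 0.287). Prdx5, found in mitochondria, peroxisomes and cytosol, ran from 70.1 to 88.5 CPM in LPS and 62.6 to 73.8 CPM in untreated libraries (log2 fold change 0.19, adjusted p = 0.251). These were the peroxiredoxins with the largest differences, and both sets of values overlapped. The cytosolic Prdx2 (89.7 to 108 CPM in LPS, 91.2 to 106 CPM in untreated libraries) and the endoplasmic reticulum form Prdx4 (26.8 to 31.8 CPM in LPS, 25.3 to 32.5 CPM in untreated libraries) had log2 fold changes of -0.0028 and 0.03.

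In the thioredoxin system, thioredoxin itself rose while its cytosolic reductase did not pass the test. Txn1 (ENSMUSG00000028367), which encodes cytosolic thioredoxin, had 52.1, 55.5, 50.7, 55.4 and 62.5 CPM in LPS libraries, against 42.5, 40.7, 41.8, 42.5 and 41.2 in untreated libraries. All LPS values lay above all untreated ones, and the untreated libraries lay within 2 CPM of each other while LPS 10 stood highest. The means were 55.2 ± 4.57 CPM in LPS and 41.8 ± 0.791 CPM in untreated cells (SD, n = 5 each; 1.32 times, 95% interval 1.20 to 1.46, edgeR adjusted p = 0.00245). Txnrd1, the reductase that recharges Txn1 with NADPH, had 303, 329, 293, 297 and 281 CPM in LPS libraries, against 316, 333, 295, 288 and 287 in untreated libraries. The groups overlapped almost fully, and the interval of the fold change was 0.898 to 1.09 (log2 fold change -0.02, edgeR adjusted p = 0.949). Txnip had 423, 434, 480.3, 443 and 487 CPM in LPS libraries, against 545, 524, 479, 502 and 581 in untreated libraries. LPS 8 and LPS 10 lay above untreated 3, so the groups overlapped, and the gene was not called (log2 fold change -0.21 ± 0.07 SE, edgeR adjusted p = 0.129). Srxn1, the sulfiredoxin that repairs over-oxidised peroxiredoxins and a standard NRF2 target, ran from 116 to 154 CPM in LPS and 114 to 138 CPM in untreated libraries (log2 fold change 0.04, adjusted p = 0.875). The mitochondrial pair was not called either: Txn2 ran from 62.4 to 71.6 CPM in LPS and 56.7 to 62.6 CPM in untreated libraries (log2 fold change 0.15, adjusted p = 0.228), and its reductase Txnrd2 from 12.1 to 15.7 CPM in LPS and 13.2 to 17.7 CPM in untreated libraries (log2 fold change -0.07, adjusted p = 0.804).

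Of the 6 glutathione genes, the 2 that rose act on existing glutathione. The 3 that make it were not called, and neither was the other glutaredoxin gene, Glrx2. Glrx (ENSMUSG00000021591), which encodes glutaredoxin, the enzyme that uses glutathione to remove it from protein thiols, had 55.5, 50.1, 47.8, 45.1 and 60.5 CPM in LPS libraries, against 40.2, 39.4, 36.8, 41.6 and 41.6 in untreated libraries. Gsr (ENSMUSG00000031584), which encodes glutathione reductase, had 86.3, 83.4, 77.2, 81.6 and 86.8 CPM in LPS libraries, against 72.8, 68.1, 63.7, 58.4 and 69.9 in untreated libraries. For both genes every LPS library lay above every untreated one. Glrx averaged 51.8 ± 6.20 CPM in LPS and 39.9 ± 1.95 CPM in untreated cells (1.30 times, 95% interval 1.15 to 1.47, edgeR adjusted p = 0.0189). Gsr averaged 83.1 ± 3.92 CPM in LPS and 66.6 ± 5.66 CPM in untreated cells (1.25 times, 95% interval 1.13 to 1.38, adjusted p = 0.0176). Both calls depended on single libraries: the adjusted p of Glrx was 0.0556 without untreated 2 and 0.0690 without untreated 3, and that of Gsr was 0.0692 without untreated 3 and 0.0527 without LPS 7. Sod2 and Txn1 kept an adjusted p under 0.05 with each library left out in turn, the highest being 0.0173 and 0.0111.

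Gclm, the modifier subunit of the enzyme that makes the first and rate-limiting step of glutathione synthesis, had 152, 132, 114, 126 and 124 CPM in LPS libraries, against 132, 120.0, 122, 124 and 128 in untreated libraries. LPS 6 was the highest of all libraries, and the groups overlapped (log2 fold change 0.05 ± 0.07 SE, edgeR adjusted p = 0.821). Its catalytic partner Gclc ran from 49.8 to 59.8 CPM in LPS and 51.7 to 54.96 CPM in untreated libraries (log2 fold change 0.01, interval 0.921 to 1.10 times, adjusted p = 0.960). Gss, which adds the last amino acid, ran from 22.02 to 26.5 CPM in LPS and 20.4 to 23.5 CPM in untreated libraries (log2 fold change 0.08, adjusted p = 0.716). The mitochondrial glutaredoxin Glrx2 ran from 19.97 to 25.98 CPM in LPS and 18.5 to 22.4 CPM in untreated libraries (log2 fold change 0.08, adjusted p = 0.757).

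**Figure D3:**
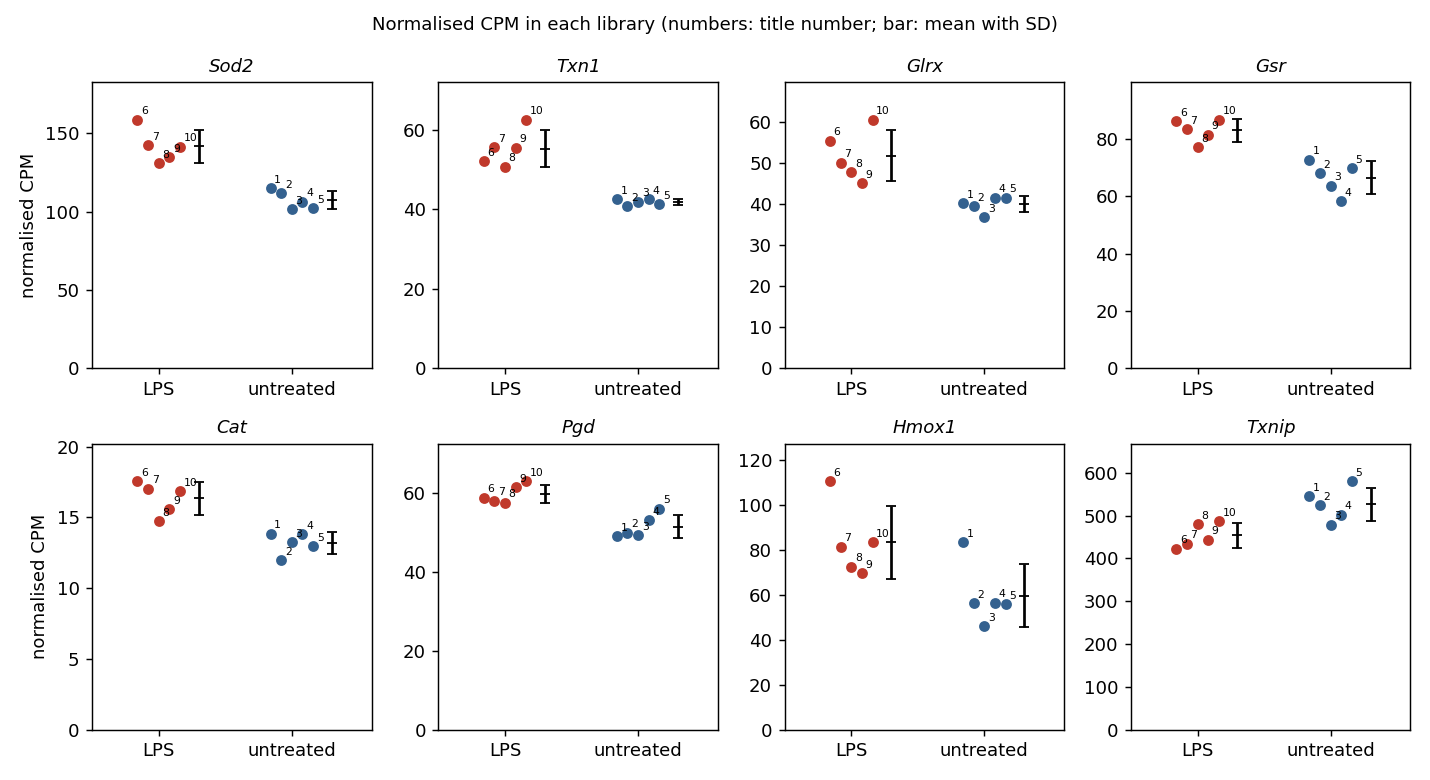
Normalised CPM of 8 of the genes in each library, with LPS on the left and untreated on the right of each panel, the title number beside each point and the mean with SD as a bar. In Sod2, Txn1, Glrx, Gsr, Cat and Pgd no untreated point reaches the lowest LPS point, while Hmox1 and Txnip overlap.

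NRF2 and its sensor did not pass the test at the RNA level, and the 2 classic targets had log2 fold changes of opposite sign. None of the 4 was called by edgeR as set out above, by DESeq2 or by limma-voom without weights, and at an unadjusted p under 0.05 Hmox1 was higher and Nqo1 lower. Nfe2l2 averaged 36.1 ± 2.32 CPM in LPS and 34.6 ± 2.86 CPM in untreated cells (log2 fold change 0.06, interval 0.935 to 1.16 times, edgeR adjusted p = 0.771). Keap1 had 70.1, 71.5, 68.7, 73.8 and 70.7 CPM in LPS libraries, against 68.7, 66.6, 69.3, 61.4 and 69.6 in untreated libraries, with overlapping groups (log2 fold change 0.08, adjusted p = 0.553). NRF2 is regulated mostly through the stability of its protein, which RNA counts do not measure.

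Hmox1, the gene of haem oxygenase 1, had 110.5, 81.3, 72.4, 69.5 and 83.2 CPM in LPS libraries, against 83.3, 56.3, 45.9, 56.4 and 55.8 in untreated libraries. Untreated 1 stood far above the other untreated libraries and at the level of LPS 10, and LPS 6 stood highest. The means were 83.4 ± 16.2 CPM in LPS and 59.5 ± 14.01 CPM in untreated cells, with a log2 fold change of 0.49 ± 0.15 SE and an edgeR adjusted p of 0.118. Without untreated 1 the log2 fold change was 0.64 (adjusted p = 0.0131). With all libraries, Hmox1 was called in 3 of 12 other settings (limma-voom with quality weights, edgeR with 1 surrogate variable and edgeR with no filter on low counts), with log2 fold changes of 0.19 to 0.71 and adjusted p of 0.0150 to 0.863 over the 12. Nqo1, a quinone reductase, was scarce and lay the other way, at 3.86, 3.87, 3.66, 3.87 and 3.69 CPM in LPS libraries, against 5.21, 4.18, 4.65, 5.04 and 5.22 in untreated libraries. Every LPS library lay below every untreated library, but the adjusted p was 0.150 (edgeR; log2 fold change -0.36 ± 0.12 SE).

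The 4 pentose phosphate enzymes had log2 fold changes of 0.09 to 0.22, and none was called by edgeR, with 1, Pgd, higher at an unadjusted p under 0.05 and called by DESeq2. Pgd, the second NADPH-producing dehydrogenase of the pathway, had 58.97, 58.2, 57.6, 61.5 and 63.2 CPM in LPS libraries, against 49.2, 50.1, 49.4, 53.2 and 56.1 in untreated libraries. The groups did not overlap, although LPS 8 and untreated 5 lay close together (log2 fold change 0.22 ± 0.06 SE, edgeR adjusted p = 0.0672, and 0.0357 without untreated 5). G6pdx, the rate-limiting first dehydrogenase, ran from 53.9 to 59.2 CPM in LPS and 48.3 to 59.4 CPM in untreated libraries (log2 fold change 0.09, adjusted p = 0.593). Tkt and Taldo1, transketolase and transaldolase, link the pathway to glycolysis. Tkt had 102, 109, 107, 99.8 and 100.2 CPM in LPS libraries, against 95.7, 99.4, 93.1, 100.1 and 97.8 in untreated libraries. Taldo1 had 92.7, 94.5, 94.5, 99.8 and 108 CPM in LPS libraries, against 90.3, 88.8, 86.9, 81.2 and 109 in untreated libraries. For both genes the groups overlapped, and the log2 fold change was 0.09 for Tkt (edgeR adjusted p = 0.450) and 0.10 for Taldo1 (0.610).

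**Figure D4:**
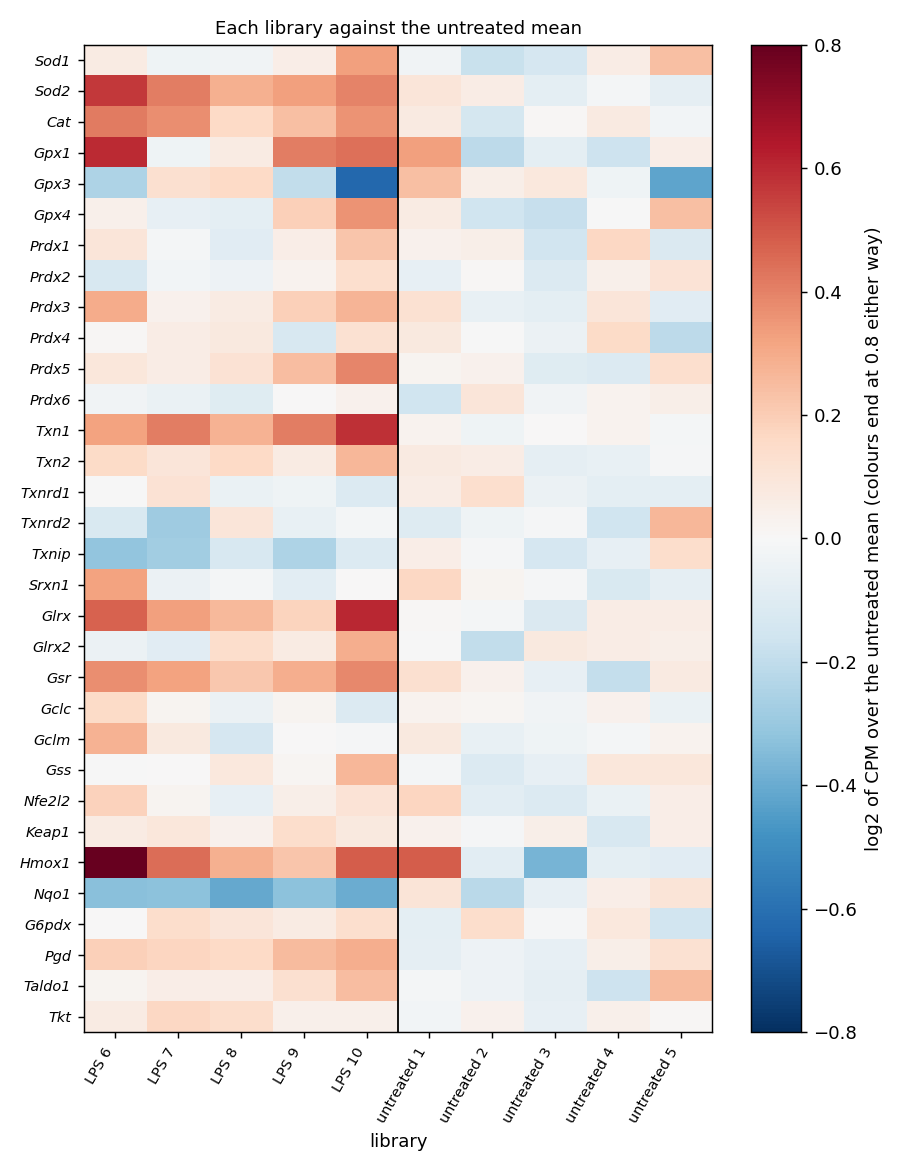
Log2 of the CPM in each library over the untreated mean for the 32 tested genes with a mean of at least 1 CPM, with the 5 LPS libraries left of the line and the 5 untreated libraries right of it. Colours end at 0.8 in either direction, which Hmox1 in LPS 6 exceeds, and the rows of Sod2, Txn1, Glrx and Gsr are red across all LPS libraries.

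Endothelial marker sums also differed between the groups, at an exact permutation p not adjusted for the number of marker lists tested. The 8 endothelial markers summed to 9.18 to 12.9 CPM in LPS and 10.4 to 36.2 CPM in untreated libraries (two-sided exact permutation test over all arrangements of the libraries, p = 0.0397), with Esam the most abundant and Kdr called lower (0.392 ± 0.327 CPM in LPS and 3.51 ± 2.47 CPM in untreated cells). The mean log2 CPM of the 6 of these markers that passed the filter on low counts served as a covariate. With it, the log2 fold changes were 0.33 for Sod2, 0.36 for Txn1, 0.30 for Glrx and 0.21 for Gsr, and none was called (edgeR adjusted p = 0.102, 0.0830, 0.368 and 0.379). That fit called 184 of all genes in place of 601. Untreated 1 had endothelial markers in the LPS range, with Kdr at 0.0777 CPM. Its Sod2 (115 CPM) and Txn1 (42.5 CPM) lay below all LPS libraries, as did those of every untreated library. Untreated 1 was also the highest untreated library for Sod2 and Gsr (72.8 CPM), and its Hmox1 (83.3 CPM) and Gpx1 (107 CPM) lay within the LPS range. The part of endothelial cells in these results was not tested beyond that covariate.

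A second library property differed likewise. The share of all counts on ENSMUSG00000119584, an identifier with no matched symbol, ran from 0.227% to 0.427% in LPS and from 0.366% to 0.942% in untreated libraries. With the log2 of that share as a covariate, the log2 fold changes were 0.47, 0.47, 0.46 and 0.31 for Sod2, Txn1, Glrx and Gsr. They were as large as or larger than without it except for Gsr. The edgeR adjusted p-values were 0.0762, 0.0690, 0.201 and 0.401. Untreated 3 was the untreated library within the LPS range of this share. Its Sod2 (102 CPM) and Txn1 (41.8 CPM) lay below all LPS libraries, as did those of every untreated library. The part of this share in the results was not tested beyond that covariate. Of the 12 macrophage markers only Cd68 and C1qa passed the filter on low counts, and their mean log2 CPM served as a covariate. Sod2 and Txn1 kept their edgeR calls beside it. Glrx and Gsr lost theirs, at a log2 fold change of 0.35 (adjusted p = 0.100) for Glrx and 0.31 (0.0805) for Gsr. Cd68 and C1qa moved in opposite directions (0.68 and -0.35 on the log2 scale), so the part of macrophages was not tested by their mean. Cd68 rose to 26.8 ± 4.78 CPM in LPS, against 16.8 ± 2.78 CPM in untreated cells, and C1qa was at 14.7 ± 1.85 CPM in LPS and 18.7 ± 3.69 CPM in untreated cells. Ductal markers, led by Krt7 and Spp1, summed to 559 to 706 CPM in LPS and 485 to 619 CPM in untreated libraries (exact p = 0.0317), and their part in the results was not tested.

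The promoters of the members were searched for the letters of the NRF2 motif. Promoter sequences were found in RefSeq (GRCm38.p6) for 30 of the 35 genes. Windows of 300 bases, 250 before the start site and 50 after it, were searched on both strands for the core of the antioxidant response element, TGACNNNGC. It was present in 8 of the 30 genes, and in 14.0% of the 27025 mouse genes with such a window. The 8 matches are shown in capitals within 10 bases on either side, on the strand of the gene, to set the motif beside the values of these genes.
Gclm, chr3:122245413-122245441, plus strand: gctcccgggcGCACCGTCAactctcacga
Txnrd1, chr10:82859104-82859132, plus strand: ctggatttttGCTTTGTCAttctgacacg
Srxn1, chr2:152105542-152105570, plus strand: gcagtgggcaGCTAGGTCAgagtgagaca
Prdx1, chr4:116685456-116685484, plus strand: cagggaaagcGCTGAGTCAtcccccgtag
Nfe2l2, chr2:75704885-75704913, minus strand: tcagcccaccTGACTCCGCcatgccccgg
Sod1, chr16:90220696-90220724, plus strand: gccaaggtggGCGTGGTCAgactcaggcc
G6pdx, chrX:74428919-74428947, minus strand: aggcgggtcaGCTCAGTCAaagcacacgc
Pgd, chr4:149166061-149166089, minus strand: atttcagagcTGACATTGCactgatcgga
In Nfe2l2 and Pgd the capitals read TGACNNNGC on the strand of the gene, and in the others they are its reverse complement. The Pgd match begins at base 4 after a start site inside the gene, and the window of its upstream start site held no match. Txnrd1 also had windows without a match. None of these 8 genes was called by edgeR as set out above or by limma-voom without weights, and Pgd was called by DESeq2 and in 2 other settings. Their log2 fold changes ran from -0.02 for Txnrd1 to 0.22 for Pgd. For Gclm, Txnrd1, Srxn1 and Prdx1, among the best known NRF2 targets, the log2 fold changes were 0.05, -0.02, 0.04 and 0.06, with a median 95% half-width over all tested members of 0.16. The windows of Sod2, Txn1 and Glrx held no such match, and no window was matched for Gsr. No match says only that these letters are not in this window, and a match is a description of the letters and not a binding site.

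The same windows were searched for a frame of the NF-kB site, GGG followed by 5 bases of any kind and CC. It was present in 25 of the 30 genes and in 53.5% of all genes, called or not. The core of the interferon-stimulated response element, TTTC followed by a pair of any bases and TTTC again, was present in 1 of the 30, Glrx2, and in 3.99% of all genes. The 250 bases before the start site are shown for the 3 called genes with a window, with each NF-kB frame, on either strand, in capitals.
Sod2, chr17:13007589-13007838, plus strand: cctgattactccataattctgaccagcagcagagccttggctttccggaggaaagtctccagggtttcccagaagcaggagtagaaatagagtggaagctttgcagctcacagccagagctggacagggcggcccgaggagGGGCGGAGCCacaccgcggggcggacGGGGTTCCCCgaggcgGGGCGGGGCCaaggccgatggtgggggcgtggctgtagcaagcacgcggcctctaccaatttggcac
Txn1, chr4:57956412-57956661, minus strand: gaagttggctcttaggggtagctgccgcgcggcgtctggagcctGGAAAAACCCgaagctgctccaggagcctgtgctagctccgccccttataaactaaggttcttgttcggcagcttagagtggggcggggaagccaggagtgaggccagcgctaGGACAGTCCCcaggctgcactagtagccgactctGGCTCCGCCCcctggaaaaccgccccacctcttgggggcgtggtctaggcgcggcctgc
Glrx, chr13:75839635-75839884, plus strand: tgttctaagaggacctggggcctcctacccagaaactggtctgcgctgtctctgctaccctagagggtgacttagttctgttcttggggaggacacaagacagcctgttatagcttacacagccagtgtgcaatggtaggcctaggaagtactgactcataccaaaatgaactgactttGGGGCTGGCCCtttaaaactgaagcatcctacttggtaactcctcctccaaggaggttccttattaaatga
Sod2 held 3 frames, Txn1 3, and Glrx 2 that overlap. A match of this loose frame is a description of the letters and not a binding site.

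Beyond the 35 genes, 109 further genes of the same pathways were followed, of which 90 were tested, and 8 were higher and 2 lower, beside 2.84% and 0.928% of all genes tested. Among 28 tested genes of glutathione use and transport, 3 were higher and 1 lower. Slc7a11, the cystine importer that feeds glutathione synthesis and an NRF2 and ATF4 target, had 6.69, 6.91, 5.08, 5.48 and 4.48 CPM in LPS libraries, against 2.60, 4.50, 2.87, 3.36 and 2.55 in untreated libraries. Untreated 2 reached the lowest LPS library, and the log2 fold change was 0.85 ± 0.19 SE (edgeR adjusted p = 0.0213). The adjusted p was 0.0685, 0.0538 and 0.0709 without untreated 3, LPS 6 and LPS 7. With all libraries, Slc7a11 was called in 10 of 12 other settings, with an adjusted p of up to 0.194 over the 12. Gstm1, a glutathione transferase, had 176, 162, 158, 173 and 208 CPM in LPS libraries, against 219, 237, 209, 237 and 253 CPM in untreated libraries. All LPS libraries lay below all untreated ones (log2 fold change -0.40 ± 0.08 SE, adjusted p = 0.0136), but reads may be shared with the near-identical genes of its family, so the value is uncertain. Gstm1 was called in 10 of 12 other settings, and not with the endothelial or the ENSMUSG00000119584 share covariate (edgeR adjusted p up to 0.500).

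Gpx2, a glutathione peroxidase known from the gut lining, averaged 51.2 ± 7.72 CPM in LPS and 35.3 ± 6.37 CPM in untreated cells (log2 fold change 0.54 ± 0.13 SE, edgeR adjusted p = 0.0350). Another call, Gsto1, a transferase that also reduces dehydroascorbate, averaged 32.2 ± 3.75 CPM in LPS and 25.5 ± 1.53 CPM in untreated cells (log2 fold change 0.34 ± 0.09 SE, adjusted p = 0.0444). Each of these calls was lost in 8 of the 10 fits with 1 library left out, with adjusted p up to 0.102 and 0.121.

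None of 18 other thiol redox genes was called by edgeR or limma-voom, with 2 of them higher and 0 lower at an unadjusted p under 0.05, and DESeq2 called 2 higher, Sesn2 and Txndc12. The most abundant were the sestrin genes Sesn3 and Sesn2, stress-responsive regulators of growth signalling. Sesn3 averaged 244 ± 38.3 CPM in LPS and 284 ± 34.2 CPM in untreated cells (log2 fold change -0.22, adjusted p = 0.392), and Sesn2 averaged 159 ± 4.58 CPM in LPS and 139 ± 6.00 CPM in untreated cells (log2 fold change 0.20, adjusted p = 0.0535).

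Of 11 partners and regulators of NRF2, 2 rose. Sqstm1 encodes p62, an autophagy receptor that binds KEAP1, and its RNA averaged 1703 ± 219 CPM in LPS and 1222 ± 115 CPM in untreated cells (log2 fold change 0.48 ± 0.09 SE, edgeR adjusted p = 0.0107). This call was kept with each library left out in turn and lost with each of the 3 covariates (log2 fold change down to 0.34, adjusted p up to 0.293). Nfe2l1, which encodes a factor related to NRF2 that governs proteasome genes, averaged 599 ± 53.9 CPM in LPS and 496 ± 21.6 CPM in untreated cells (log2 fold change 0.27 ± 0.07 SE, adjusted p = 0.0489), a call lost in 9 of 10 fits with 1 library left out (adjusted p up to 0.129). None of 16 other NRF2 targets was called by edgeR, DESeq2 or limma-voom, with 0 higher and 2 lower at an unadjusted p under 0.05. Their most abundant genes were the ferritin chains, with Ftl1 at 1113 ± 116 CPM in LPS and 985 ± 142 CPM in untreated cells (log2 fold change 0.18, adjusted p = 0.453) and Fth1 at 411 ± 33.1 CPM in LPS and 421 ± 18.9 CPM in untreated cells (log2 fold change -0.03, adjusted p = 0.871).

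Of 12 further genes grouped with NADPH supply, 1 fell. It was Rpia, an isomerase of the branch of the pentose phosphate pathway that makes no NADPH, with 35.4, 34.6, 38.2, 36.97 and 37.8 CPM in LPS libraries, against 43.9, 46.4, 46.3, 47.04 and 54.95 in untreated libraries. The groups did not overlap (log2 fold change -0.38 ± 0.07 SE, edgeR adjusted p = 0.00608). Rpia was called in 10 of 12 other settings, and not with the endothelial or the ENSMUSG00000119584 share covariate (edgeR adjusted p up to 0.131).

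Enzymes that make superoxide, peroxide or nitric oxide held the largest log2 fold changes of all the lists, on low levels. Of 15 such genes 5 were tested by edgeR and 3 rose. Duox2, a peroxide-producing oxidase of epithelia, had 1.61, 1.81, 0.523, 6.34 and 12.8 CPM in LPS libraries, against 0.0777, 0.122, 0.253, 0 and 0 in untreated libraries. LPS 9 and LPS 10 were far above the other LPS libraries (log2 fold change 5.59 ± 0.97 SE, edgeR adjusted p = 0.00448). Its maturation factor Duoxa2 had 112 counts summed over the LPS libraries and 2 over the untreated ones, did not pass the filter of the edgeR test and was called higher by DESeq2, which has another filter. Xdh, xanthine dehydrogenase, averaged 3.38 ± 0.888 CPM in LPS and 0.867 ± 0.542 CPM in untreated cells (log2 fold change 1.95 ± 0.36 SE, adjusted p = 0.00658). Nos2, the inducible nitric oxide synthase, had 2.54, 1.81, 0.903, 1.88 and 0.539 CPM in LPS libraries, against 0, 0.243, 0, 0 and 0.0821 CPM in untreated libraries (log2 fold change 4.43 ± 0.71 SE, adjusted p = 0.00261), which are few counts per library. With the endothelial covariate Nos2 was called, and Duox2 and Xdh were not. With the log2 share of ENSMUSG00000119584 as a covariate none of the 3 was called. The edgeR adjusted p was then 0.222 for Duox2, 0.117 for Xdh and 0.0888 for Nos2. With the macrophage covariate Duox2 was not called.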

How the data were processed

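RNA-seq of sorted beta cells gave 1 table of raw counts per library, deposited by the authors, with whole numbers per Ensembl gene identifier. The authors' tools were, per the submitters' processing notes, STAR, HTSeq, SAMtools, Trimmomatic, FastQC and DESeq2, and the build was GRCm39. Versions of these tools, the library kit and the strand setting were not given in the sources used, so reads of overlapping genes cannot be told apart. Of the 35 members, 9 share exon sequence with another gene in GENCODE M21 (Prdx2, Prdx5, Txnrd2, Txnip, Gclm, Gss, Keap1, G6pdx and Tkt), and 2 (Gpx4 and Prdx6) have a named pseudogene copy. Rows that name no gene, of which reads outside genes made up 8.84% to 12.9% of all reads in a table, stayed out of library sizes and tests. Of 56748 identifiers, 52073 matched a symbol through the reference tables. Libraries of a group differed by more than sampling noise (chi-square per gene at least 6.14), and each was treated as 1 replicate. That difference does not show that the libraries came from different animals.

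Genes were filtered (filterByExpr of edgeR 4.0.16, minimum count 10, minimum total 15), scaled by TMM, and LPS was set against untreated with edgeR's quasi-likelihood F test in R 4.3.3, with Benjamini-Hochberg adjustment over all 15942 genes tested and a call at an adjusted p under 0.05. CPM are TMM-normalised, and CPM per kilobase divide by merged GENCODE M21 exon length. Standard errors and 95% intervals of log2 fold changes come from that test. Totals of 18465188 to 27379892 counts limit the precision for scarce genes. For marker sums an exact permutation test (two-sided) was used, whose smallest p is 0.00794. Every marker list was tested, without adjustment for the number of lists. Only the endothelial and ductal sums had a p under 0.05, and the p of the other lists ran from 0.0556 to 0.937. Simulated counts were used to test the fit. Alternatives were other scalings (DESeq2 size factors, upper quartile, library sizes without the 20 most abundant genes), filters (none, or 1 CPM in 5 libraries), DESeq2 1.42.0, limma-voom (limma 3.58.1) with and without quality weights, 1 surrogate variable (sva 3.50.0), 3 covariates and 10 fits with 1 library left out. Tables and figures were made in Python 3.11.15 (pandas 2.3.3, matplotlib 3.10.9).

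The members, the lists of further genes and the markers were chosen with earlier results of these data known. Every member is named. Called members and the 2 most abundant of each role are given for every library, and so are Cat, Gpx1, Nqo1 and Pgd, which were chosen after their values were seen. Of each further list, up to 3 called genes with the smallest adjusted p, or else the 2 most abundant, are named. Gsto1, Txndc12 and Duoxa2 were named beyond that rule, after their values were seen. Of 110 further symbols, 109 matched 1 identifier, and Nnt, which matched 2, was left out.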

Additional observations from a re-analysis of the deposited data

Results flagged for a closer look

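A library stood apart from the other 4 of its group in 3 of 66 sets, each a tested member in 1 of the groups, and chance alone gives about 1 in 20. Sod1 was at 221 CPM in LPS 10 and at 172 to 184 CPM in the other LPS libraries. Srxn1 was at 154 CPM in LPS 6, beside 116 to 124 CPM in the other LPS libraries. Hmox1 was at 83.3 CPM in untreated 1, beside 45.9 to 56.4 CPM in the other untreated libraries.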

How the results depend on the processing

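The 3 other scalings and limma-voom gave the same number of called members, 4 higher and 0 lower, and the 2 other filters gave 5 higher. Members called higher numbered 7 with limma-voom quality weights, 7 with the surrogate variable, 2 with the macrophage, 0 with the endothelial and 0 with the ENSMUSG00000119584 share covariate, and 2 to 5 with 1 library left out. Members called lower numbered 1 with DESeq2 and 1 with the surrogate variable (Txnip in both), and 0 in each fit with 1 library left out. DESeq2, quality weights and the surrogate variable added Cat and Pgd. Hmox1 was added by quality weights, the surrogate variable and no filter, and Cat by the 1 CPM filter. Further genes called higher numbered 13 with the surrogate variable, 2 with the macrophage, 2 with the endothelial and 0 with the share covariate, and 4 to 7 with 1 library left out. Those called lower numbered 4 with the surrogate variable, 0 with the endothelial and 0 with the share covariate, and 2 in each fit with 1 library left out. Over all genes, 453 were higher and 148 lower, with 693 and 301 with quality weights, 833 and 454 with the surrogate variable, 264 and 57 with the macrophage, 173 and 11 with the endothelial and 141 and 16 with the share covariate, and 289 lower with DESeq2. With 1 library left out, 324 to 458 were higher and 75 to 166 lower. Calls that were higher made up 75.4%, against 64.7% with the surrogate variable, 94.0% with the endothelial and 89.8% with the share covariate. The cause of these shifts was not tested. 

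Sign changes touched only members that were not called and whose log2 fold changes lay near 0. With the endothelial covariate Gpx4 was at -0.026, Prdx2 at 0.011, Prdx6 at 0.036, Srxn1 at -0.084, Gclm at -0.016 and Nfe2l2 at -0.064. With the macrophage covariate Prdx1 was at -0.035, Prdx4 at -0.025, Txnrd2 at 0.0072 and Gclc at -0.0036. With the share covariate Prdx2 was at 0.065, Txnrd1 at 0.028 and Srxn1 at -0.016. Quality weights gave 0.021 for Prdx2 and -0.0088 for Srxn1, and upper-quartile factors -0.0026 for Gclc. With 1 library left out, log2 fold changes ran from -0.039 to 0.026 for Prdx2, -0.017 to 0.071 for Prdx4, -0.057 to 0.019 for Txnrd1, -0.13 to 1.9e-04 for Txnrd2, -0.043 to 0.088 for Srxn1, -0.034 to 0.041 for Gclc and -0.021 to 0.086 for Gclm. No paired analysis was made because LPS and untreated titles share no replicate number. The surrogate variable nevertheless rose in title order in both groups. It ran from -0.437 in untreated 1 to 0.416 in untreated 5, and from -0.579 in LPS 6 to 0.486 in LPS 10. Whether the libraries were prepared in matched sets was not tested.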

Other observations

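LPS 6 was the highest LPS library, and untreated 1 the highest untreated library, for Hmox1, Gpx1, Srxn1, Gclm and Sod2, a set chosen after its values were seen. The same libraries had the lowest share of reads outside genes in their groups, 8.84% in LPS 6 and 10.3% in untreated 1, and their part in these values was not tested.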
